A study of Mus musculus with 13 samples.

Results

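Constitutive origins were defined here as the sites of replication initiation that were found in every SNS-seq experiment of the series, with or without a G4 ligand. The newly made, RNA-primed DNA pieces of starting forks (short nascent strands, SNS) were purified and sequenced from asynchronous cultures of CGR8, a single line of mouse embryonic stem (ES) cells grown without feeder cells in serum and LIF. The cells were kept for 48 h in 0.5% DMSO (Ctrl, 3 biological replicates) or in 10 μM PhenDC3 with 0.5% DMSO (PhenDC3, 2 replicates), and PhenDC3 is a small molecule that binds and stabilizes G-quadruplexes. Each list of peaks was called against the RNase-treated library of its condition, a control in which nascent strands lose their protecting RNA primer and are digested. RNA-seq was available for 3 replicates of each condition. The peaks of the 5 lists were merged where they overlapped by at least 1 bp, and of 246934 merged regions 22677 (9.18%) held a peak in all 3 Ctrl and both PhenDC3 lists. These 22677 regions were 22.3% of the 101678 regions called origins, for which Ctrl or PhenDC3 cells had to show a peak in 2 or more replicates.

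A replication origin is licensed in G1 by loading of the MCM helicase, and only a fraction of the licensed sites fires in any one S phase, so that the sites used differ from cell to cell. In mammals origins have no strict consensus sequence. Many carry a G-rich element that can fold into a G-quadruplex (G4), a four-stranded structure of stacked guanine tetrads, and many lie at promoters or in CpG islands.

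The element that most constitutive origins shared was a G4 on one side of the initiation site. G4 were predicted on the genome with G4Hunter (window of 25 bases, score of at least 2, where longer runs of G score higher), and G4-positive regions were those with a predicted G4 no farther than 500 bp from the centre. The origin at chr11:32314943-32315601 was picked for display among sites with a single G4 and with summits close together in all lists. The pick also required a G4 close upstream of the summits, little repeat-masked sequence and no exon of a coding gene. By its lowest percentile over the lists the site ranked 152. It is an intergenic site of the mm10 genome 15203 bp downstream of the start of Hbq1a, a member of the α-globin cluster. It is shown on the minus strand (chr11:32315411-32315646) with the predicted G4 in capitals. The peak summits lay 164, 190 and 192 bp downstream of the G4 centre in the Ctrl lists and 169 and 167 bp in the PhenDC3 lists, near the end of the printed stretch, and ranked by −log10 p the peak stood at percentiles from 96.3 to 99.7 of the lists.
Origin near Hbq1a: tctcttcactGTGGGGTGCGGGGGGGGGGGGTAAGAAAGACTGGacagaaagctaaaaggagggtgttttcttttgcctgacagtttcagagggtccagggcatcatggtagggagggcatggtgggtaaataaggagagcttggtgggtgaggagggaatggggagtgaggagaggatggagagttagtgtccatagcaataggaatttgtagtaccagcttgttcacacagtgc

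The rule used the presence of peaks, so presence and strength are given below as a description, whereas DNA sequence, gene position and RNA level were not used to choose the regions. Between 18.7% and 33.1% of the peaks of a list lay at constitutive origins (20.6%, 30.3% and 33.1% in the Ctrl lists, 18.7% and 26.4% in the PhenDC3 lists). The sites were between 134 and 10275 bp long, with a median of 487 bp against 303 bp for the other origins. A site spans all of its merged peaks, so the rule itself favours longer sites. The median length was 155 bp for regions found in 1 list and 385 bp for those in 4 lists. The weakest of the 5 peaks of a constitutive origin had a median −log10 p of 12.3, and the weakest of the 4 peaks of the 19830 regions that just missed the rule, with a peak in 4 lists, had a median of 10.8. Both groups reached down to 5.01, the lower end of the lists.

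Most constitutive origins had such an element. Of 22677 sites, 17534 (77.3%, 95% Wilson interval 76.8 to 77.9) were G4-positive. Of all sites, 11543 had 1 G4, 4315 had 2, 1200 had 3 and 476 had 4 or more, with 15 at the richest site, and 1775 of the G4-positive sites (10.1%) had G4 on both strands. The G-rich strand of the strongest G4 was the plus strand at 49.4% of the sites. Where the G4 lay in genes of one strand only (8833 sites), the G-rich strand was the coding strand at 46.0% (interval 45.0 to 47.1).

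The position of the G4 relative to the summit was alike in all lists. The rule favours this, since the same G4 was used for all lists and their peaks had to fall in 1 merged region. Read 5′ to 3′ along the G-rich strand, the centre of the strongest G4 had a median position relative to the summit of -245.5, -227 and -250 bp in the Ctrl lists and of -231.5 and -235 bp in the PhenDC3 lists, where negative values are upstream. It was upstream at 88.1%, 88.3% and 88.6% of the sites in Ctrl and at 88.8% and 88.7% with PhenDC3, and at sites with a single G4 at 93.3% to 93.8%. The other origins had the G4 upstream at 78.4%, 76.6% and 83.4% in Ctrl and at 89.1% and 89.7% with PhenDC3, so constitutive origins were ahead of them in the Ctrl lists and slightly behind in the PhenDC3 lists. At constitutive origins in CpG-rich sequence (GC content over 50% and an observed to expected CpG ratio over 0.6 within 500 bp) the share upstream was lower, between 73.8% and 76.7%.

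**Figure D1:**
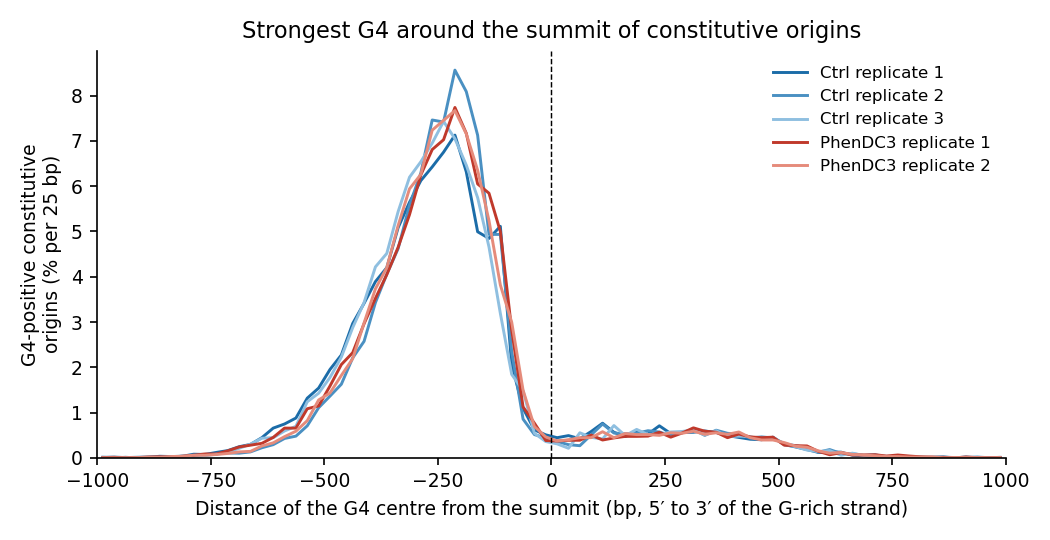
Distance from the peak summit of the centre of the strongest G4 within 500 bp of the centre of a constitutive origin (x axis, in bp along the G-rich strand, negative values upstream), as a percentage of the G4-positive constitutive origins in bins of 25 bp (y axis), 1 line per list. The lines of the 5 lists lie close to each other, which the rule favours, with broad maxima upstream of the summit around -212.5 bp. From 88.1% to 88.8% of the G4 are upstream of the summit.

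Whether sites in all lists carried a G4 more often than the rest was asked by the number of lists with a peak. The G4-positive share was 54.1% of the regions found in 1 list, 63.7% in 2, 69.7% in 3, 77.2% in 4 and 77.3% in 5. The rise therefore ended at 4 lists, and the intervals of the last 2 shares (76.6 to 77.8 and 76.8 to 77.9) overlapped. Regions missed by a Ctrl list alone were richer in G4 (81.4% of 10728) than constitutive origins, and regions missed by a PhenDC3 list alone were poorer (72.2% of 9102).

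Within lists, the comparison went different ways in the 2 conditions. In the Ctrl lists, peaks at constitutive origins were G4-positive in 75.3%, 76.7% and 75.9% of cases, against 53.4%, 57.6% and 58.4% of the other peaks of the same list. In the PhenDC3 lists the shares were 74.7% against 70.6% and 74.1% against 78.9%. Constitutive peaks thus differed by 21.9, 19.1 and 17.5 percentage points in Ctrl, by 4.09 in PhenDC3 replicate 1 and by -4.86 in PhenDC3 replicate 2. The sign in PhenDC3 replicate 1 was not stable: its difference was -2.60 with a G4Hunter score of 1.5, -6.11 with a G4 within 250 bp, -2.75 against peaks in other origins only and -1.71 for peaks above the median of each list. The values at constitutive sites varied little, and those of the other peaks moved with the condition. The mean difference of 11.5 ± 11.5 points (SD, n = 5 lists) gave p = 0.188 in an exact two-sided sign-flip permutation test, for which 5 lists cannot go below 0.062. This SD spans both conditions, and the lists share the same constitutive sites, so it is not a spread between replicates alone. The result depended on the distance allowed, since with a G4 within 250 bp in place of 500 bp the mean difference was 0.838 points. Compared at equal strength, in 10 bins of each list by −log10 p, the constitutive peaks had the larger share in all 10 bins of each Ctrl list (by 3.22 to 33.4 points), in 9 of 10 in PhenDC3 replicate 1 and in 0 of 10 in PhenDC3 replicate 2.

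**Figure D2:**
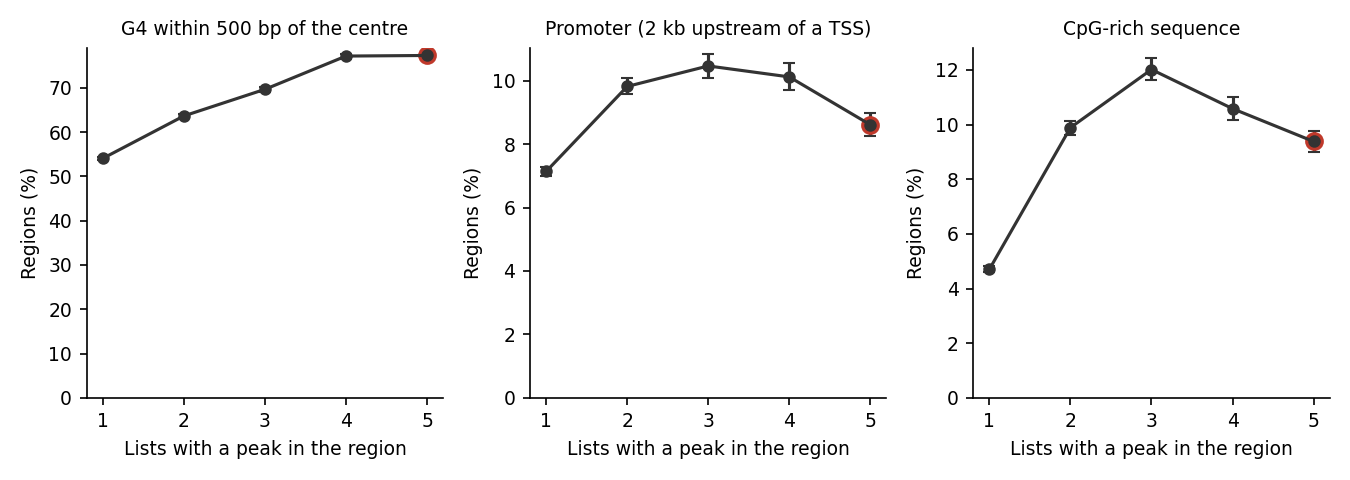
Share of merged regions (y axes, %) with a G4 within 500 bp of the centre, at a promoter and in CpG-rich sequence, by the number of lists with a peak (x axes), with 95% Wilson intervals and the constitutive origins in red. The G4 share rises from 54.1% to 77.3%, whereas the promoter and CpG-rich shares are highest at 3 lists and lower again at 5.

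Most constitutive origins lay far from gene starts. Promoters (the 2 kb upstream of a curated RefSeq TSS) held 1953 of them (8.61%, interval 8.25 to 8.98), against 10.5% of the other origins. Transcribed regions outside promoters held 46.9%, of which most was intronic, and 44.5% were intergenic. The median distance to the nearest TSS was 20.8 kb, and 4060 sites (17.9%) were over 100 kb away. Promoter sites had a G4 in 82.1% of cases and a median GC content of 56.9%, compared with 73.3% and 48.7% at intergenic sites. A CpG-rich sequence was found at 2128 sites (9.38%), and these had fewer G4 (66.6%) than the sites outside such sequence (78.4%).

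The promoter share of constitutive peaks was lower than that of the other peaks in 2 of the 5 lists. It was 8.72%, 9.19% and 9.07% in Ctrl, against 13.0%, 17.3% and 5.75% of the other peaks. With PhenDC3 it was 8.74% and 8.93% against 6.57% and 5.42%. The difference was thus negative in Ctrl replicates 1 and 2 (-4.24 and -8.09 points) and positive in Ctrl replicate 3 (3.33) and with PhenDC3 (2.17 and 3.51). The mean, -0.664 ± 5.23 points (SD, n = 5), gave p = 0.812 in the exact sign-flip permutation test, and without Ctrl replicate 2 or 3 it was 0.132 or 0.439.

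Constitutive origins were found on every nuclear chromosome, between 5.32 (chromosome 14) and 14.5 (chromosome 11) per Mb of sequenced autosome. They were sparser on X (2.01 per Mb) and Y (1.15 per Mb). On X they were 328 of 1564 origins (21.0%), a share like that of the autosomes, so origins of all kinds were sparse there. The 101 sites on Y were 43.9% of its origins, whereas this share was between 19.7% and 23.5% on the autosomes, and the Y sites lay mostly in repeat-masked sequence (median 98.6% masked) with a G4 at 4.95%. Across the genome, 969 sites were at least 90% repeat-masked, and 22.9% of these had a G4. Reads from such copies cannot be assigned to one of them with certainty.

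Neighbouring constitutive origins were a median of 48.6 kb apart, and 15% of the gaps were up to 7 kb. Linked at gaps of up to 7 kb, 16821 sites stood alone and the others fell in chains, of which 41 held 6 or more sites. The longest chain, of 38 sites at chr8:123536640-123630405, lay on the tandem genes of 5S ribosomal RNA, and a chain of 17 at chr6:47650582-47686630 had the 4.5S RNA gene Rn4.5s as its nearest gene, with 1 site at the gene itself. Chains of 16 near Erdr1 on X (chr X, 169985570 to 170022544) and Y (chr Y, 90783452 to 90811062) fell in the pseudoautosomal region that both chromosomes share. A chain of 12 at chr7:44334119-44360870 followed Shank1, which encodes a scaffold protein of synapses, and all 12 of its sites were G4-positive.

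Within every list, constitutive origins were strong on average but spread over the whole range. The percentile of a site's strongest peak by −log10 p within its list had a median of 80.1, 71.2 and 74.8 in the Ctrl lists and 69.3 and 75 in the PhenDC3 lists. With every peak at constitutive origins counted, the medians were 77.3, 68.8, 70.4, 63.8 and 69.7 in the same order. The other peaks, all counted singly, had medians of 43.4, 42.5, 41.1, 47.1 and 43.8. Those of them that lay in other origins had 55.4, 48.6, 47.3, 58.7 and 48.3, so the gap to these was smaller. Of the strongest 10% of a list, 57.3%, 60.2% and 70.5% lay at constitutive origins in Ctrl, and 34.1% and 58.1% with PhenDC3, where replicate 1 stood lowest. The median fold enrichment over the RNase-treated library was higher at constitutive peaks than at the others in the 3 Ctrl lists (6.76, 5.73 and 6.50 against 5.16, 4.65 and 5.23), while with PhenDC3 it was 5.08 against 5.28 and 5.15 against 4.95.

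**Figure D3:**
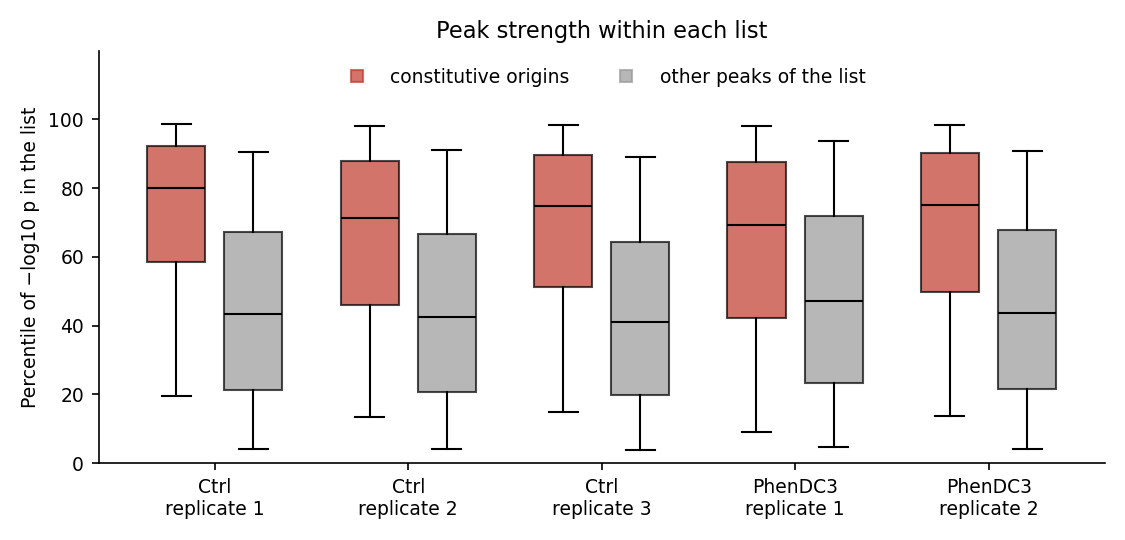
Percentile of −log10 p within the list (y axis) of the strongest peak of each constitutive origin (red) and of the other peaks (grey), by list. Boxes give the quartiles with the median, whiskers the 5th and 95th percentiles. The constitutive medians lie between 69.3 and 80.1 and the others between 41.1 and 47.1. The other peaks are all counted singly and include peaks outside origins.

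None of the 6 strongest constitutive origins had a G4 at the score of 2, and 4 of them lay at genes of U3 RNA or of a histone. Sites were ranked by their lowest percentile over the 5 lists. The first, at chr11:87470805-87471669 in an intron of Tex14, was centred 131 bp upstream of Rnu3b2, a gene of the U3 RNA that guides the first cleavages of pre-ribosomal RNA. Its fold enrichment was 21.5, 17.2 and 20.01 in Ctrl and 26.4 and 13.0 with PhenDC3, and in every list its percentile by −log10 p rounded to 100. The sites ranked 3 and 5, chr11:87447908-87448836 and chr11:87461536-87462546, lay next to the copies Rnu3b3 and Rnu3b4 in introns of the same gene. The transcribed sequences of Rnu3b1, Rnu3b2 and Rnu3b3 are identical over 215 bases, so reads there could belong to any copy.

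The other 3 of the 6 strongest had no U3 gene. The second, at chr11:104072727-104073988, was intergenic, at the start of the long non-coding RNA gene Gm42092 and 59.4 kb upstream of Crhr1, which encodes a receptor of corticotropin-releasing hormone. It is the strongest constitutive origin with no G4 within 1 kb even at a G4Hunter score of 1.5, a property of 799 sites, and its fold enrichment was 19.3, 17.1 and 20.8 in Ctrl and 13.6 and 11.5 with PhenDC3. The site ranked 4, chr6:47650582-47652104, was intergenic, at the start of the long non-coding RNA gene Gm40371 and 3.75 kb from a gene of 4.5S RNA, and had a fold enrichment of 19.4, 15.3 and 17.7 in Ctrl and 8.03 and 9.49 with PhenDC3. The site ranked 6, chr3:96240142-96240530, covered the start of the histone gene H2ac19, with a fold enrichment of 11.8, 9.30 and 12.3 in Ctrl and 14.4 and 10.3 with PhenDC3.

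The bases around the median summit of 3 of them are shown on the plus strand, since these sites lacked a G4 at the score of 2 and were strong in every list, with runs of at least 3 G or 3 C in capitals. At a score of 1.5 the first and the third have 1 G4 within 500 bp. They cover chr11:87471178-87471327 (just upstream of Rnu3b2), chr11:104073131-104073280 and chr6:47650897-47651046. The fourth line gives a tRNA gene, n-TDgtc5, inside the site ranked 13 (chr1:171101694-171103163), from chr1:171102351-171102462 on the plus strand. Its capitals mark a match to GTTCGANTC, the B box of the internal promoter of RNA polymerase III, and this site stood at percentiles of 99.6, 99.9 and 99.6 in Ctrl and 99.9 and 100.0 with PhenDC3.
Rnu3b2 site: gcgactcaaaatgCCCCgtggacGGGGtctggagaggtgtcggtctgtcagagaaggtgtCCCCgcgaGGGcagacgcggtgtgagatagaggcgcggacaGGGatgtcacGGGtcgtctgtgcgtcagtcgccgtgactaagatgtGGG
Intergenic site upstream of Crhr1: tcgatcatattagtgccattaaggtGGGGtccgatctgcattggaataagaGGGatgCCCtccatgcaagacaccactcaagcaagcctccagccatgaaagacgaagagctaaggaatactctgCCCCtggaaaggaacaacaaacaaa
Site near 4.5S RNA: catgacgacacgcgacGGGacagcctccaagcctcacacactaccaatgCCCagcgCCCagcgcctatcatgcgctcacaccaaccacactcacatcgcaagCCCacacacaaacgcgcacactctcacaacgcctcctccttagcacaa
tRNA gene n-TDgtc5: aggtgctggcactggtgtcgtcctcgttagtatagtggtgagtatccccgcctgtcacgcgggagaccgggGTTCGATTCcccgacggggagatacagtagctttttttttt

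Genes of structured RNAs and histones thinned out down the ranking. A start of a tRNA, snRNA (including U3), rRNA or replication-dependent histone gene lay within 250 bp of 33 of the 100 strongest sites (33.0%, interval 24.6 to 42.7), of 81 of the next 900 (9.0%) and of 167 of the remaining 21677 (0.770%). Among the other origins it was 0.422%. Over the same 3 tiers the G4-positive share was 44.0%, 71.4% and 77.7% and the CpG-rich share 46.0%, 18.2% and 8.85%. These classes were chosen after the strongest sites had been seen, and the tiers use peak strength, so the shares are a description with no test. A match to the B box on either strand within 500 bp of the centre was found at 6 of the 100 strongest, at 200 of all 22677 (0.882%) and at 0.763% of all merged regions.

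**Figure D4:**
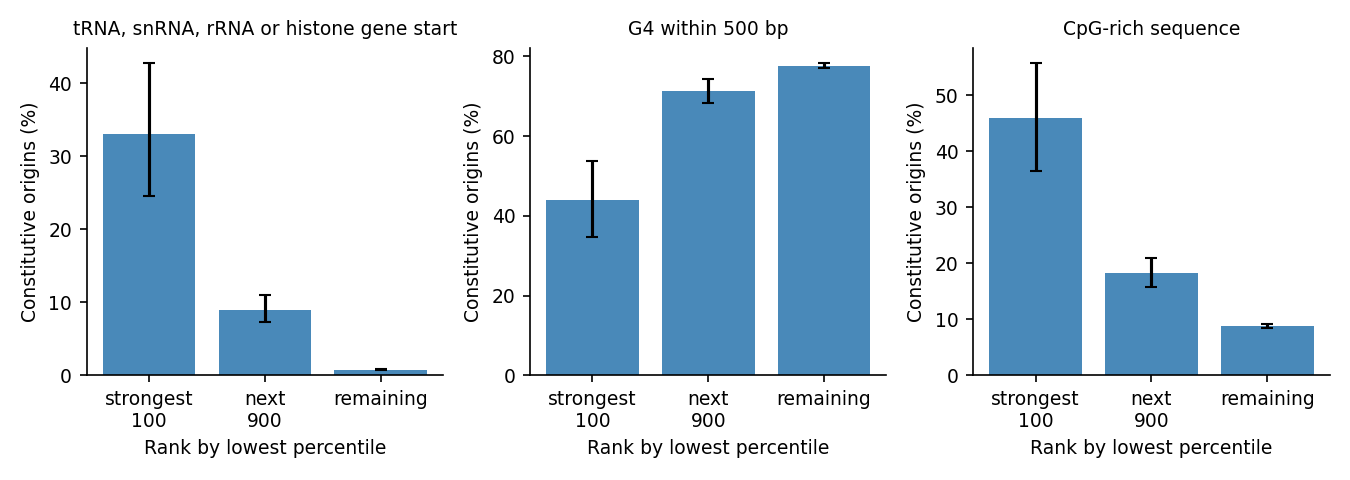
Constitutive origins ranked by their lowest percentile over the 5 lists (x axes, 3 tiers), with the share (y axes, %) within 250 bp of the start of a tRNA, snRNA, rRNA or histone gene, with a G4 within 500 bp, and in CpG-rich sequence. Bars are shares with 95% Wilson intervals. The first falls from 33.0% to 0.770% and the second rises from 44.0% to 77.7%.

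Seen from the genes, the share with a constitutive origin at the start was highest for rRNA and histone genes among the classes counted. A constitutive origin overlapped the 250 bp on either side of the start of 51 of 62 rRNA genes (82.3%), 44 of 69 replication-dependent histone genes (63.8%), 109 of 403 tRNA genes (27.0%) and 141 of 997 snRNA genes (14.1%). It did so at 33 of 1330 snoRNA genes (2.48%) and at 1446 of 21774 protein-coding genes (6.64%). Most rRNA genes here are 5S copies in the chain on chromosome 8. The sites at tRNA genes had a G4 in 33.3% of cases, those at snRNA genes in 23.4% and those at histone genes in 19.4%, against 86.5% at rRNA genes.

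The sites at tRNA, snRNA, rRNA and histone genes had high median percentiles in Ctrl, which varied more with PhenDC3. These classes were chosen after the strongest sites had been seen. Sites at snRNA genes had 88.6, 96.8 and 95.5 in Ctrl and 73.5 and 94.1 with PhenDC3. At rRNA genes the values were 100.0, 97.7 and 96.5, then 100.0 and 94.5. The remaining constitutive origins had 79.9, 70.8 and 74.5 in Ctrl and 69.1 and 74.7 with PhenDC3. Sites at histone genes had median percentiles of 98.1, 98.7 and 97.5 in Ctrl and 97.7 and 87.8 with PhenDC3. Sites at tRNA genes had 92.2, 98.6 and 96.3 in Ctrl and 79.5 and 92.8 with PhenDC3, and 27 of these 72 lay below all Ctrl lists in both PhenDC3 lists while 2 lay above. At snRNA genes 31 of 141 sites lay below and 7 above, at histone genes 9 of 31 below and 3 above, and at rRNA genes 1 of 37 below and 1 above. Of all constitutive origins 18.9% lay below and 14.1% above, and of those in the strongest of 4 equal bins by mean Ctrl percentile 40.7% with and 37.8% without a G4 lay below.

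The order of the constitutive origins by strength differed between lists. Across the 22677 sites, Spearman's rank correlation of the percentiles was 0.569, 0.491 and 0.527 between Ctrl lists, 0.354 between the PhenDC3 lists, and between 0.0880 and 0.374 across conditions. These are descriptions across sites of 1 genome, which share libraries and base composition. The summits were a median of 21 to 36 bp apart in every pair of lists, which the rule favours, since it requires peaks of all lists to fall in 1 merged region. Over all 5 lists the summits of a site spread over a median of 87 bp, and over 81 bp at G4-positive sites and 115 bp at G4-negative sites.

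The effect of the G4 ligand on these sites was asked next. Both PhenDC3 percentiles lay above all 3 Ctrl percentiles at 3196 constitutive origins (14.1%) and below all of them at 4296 (18.9%). With so few lists, some sites separate in this way without any effect of the ligand, and these counts were not tested. G4-positive sites were split nearly evenly, with 2695 above (15.4%) and 3023 below (17.2%). Of the G4-negative sites, 501 were above (9.74%) and 1273 below (24.8%), and of the 1871 sites without a G4 even at a score of 1.5, 5.77% were above and 28.3% below. The counts depend on the strength that the rule used, and sites already at the top of the Ctrl lists could only move down. With sites put in 4 equal bins by their mean Ctrl percentile, G4-negative sites lay below Ctrl more often in the 3 weaker bins (5.02%, 16.7% and 30.7% against 2.80%, 9.62% and 18.4% of the G4-positive sites), and in the strongest bin less often (37.8% against 40.7%). Sites at least 90% repeat-masked lay below Ctrl at 34.1% and above at 4.85%, against 18.3% and 14.5% of the other sites. They were 14.5% of the G4-negative and 1.27% of the G4-positive sites, and their part in the G4 comparison was not tested.

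Per list, the median percentile of G4-positive sites was below that of G4-negative sites in each Ctrl list and above it in each PhenDC3 list. It was 79.5 against 81.7, 69.0 against 77.7 and 73.4 against 78.8 in Ctrl, and 69.9 against 67.2 and 75.6 against 72.3 with PhenDC3. The contrast was thus -2.13, -8.70 and -5.43 points in Ctrl and 2.71 and 3.30 with PhenDC3, with no overlap. The difference between the conditions was 8.43 points, with p = 0.2 in an exact two-sided permutation test, the smallest value that 3 against 2 lists allow. Peaks of replicate 2 of both conditions carry a mark of adapter filtering in their names, while those of Ctrl replicate 3 are named as a replicate 2, so the numbering of the Ctrl lists is uncertain. Within the 2 lists with the mark the contrast was -8.70 and 3.30, while in the other 3 it was -2.13, -5.43 and 2.71. The direction depended on the measure of strength: with percentiles of the fold enrichment, G4-positive sites were below G4-negative sites in all lists (-7.21, -12.7 and -8.38 in Ctrl, -13.0 and -12.2 with PhenDC3) and the difference was -3.19.

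For promoter and CpG-rich sites the contrasts by −log10 p overlapped between conditions. Promoter sites exceeded the others by 6.91, 16.8 and -1.83 points of median percentile in Ctrl and by 5.80 and 7.09 with PhenDC3, a difference of -0.833 (p = 1.0, exact permutation test). For CpG-rich sites the contrast was 9.40, 21.4 and 3.52 in Ctrl and 5.65 and 9.41 with PhenDC3, a difference of -3.91 (p = 1.0, exact permutation test). Ctrl replicate 2 stood highest in both, and without it the promoter difference was 3.91. With percentiles of the fold enrichment the direction turned: promoter sites lay below the others in all lists, by -9.83, -5.41 and -21.7 points in Ctrl and by -3.30 and -5.28 with PhenDC3, which did not overlap, and the difference was 8.03 (p = 0.2 in the exact permutation test, the smallest possible).

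**Figure D5:**
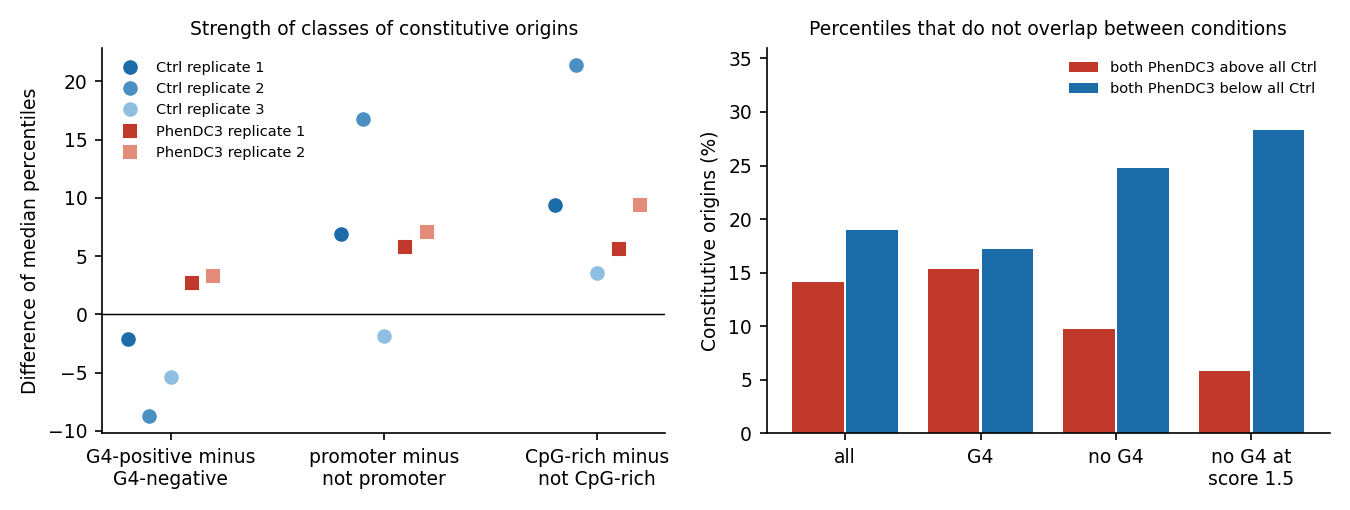
Left, difference in median percentile (y axis, points) between classes of constitutive origins in each list, circles for Ctrl and squares for PhenDC3. Right, share of constitutive origins (y axis, %) whose PhenDC3 percentiles lay both above (red) or both below (blue) all Ctrl percentiles, for all sites and by G4. The G4 contrast is between -8.70 and -2.13 in Ctrl and at 2.71 and 3.30 with PhenDC3, and the share below Ctrl is 17.2% with and 24.8% without a G4.

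All 6 sites named for the largest differences had a G4, as did 77.3% of all constitutive origins, and 4 of them were intronic, as were 43.0% of all. The largest rise was in an intron of Arhgef7 (chr8:11803370-11803851), at percentiles of 0.379, 6.77 and 20.6 in Ctrl and 96.3 and 97.9 with PhenDC3. A site in an intron of Adgrl1, an adhesion receptor of neurons (chr8:83923149-83923540), stood at 6.90, 6.15 and 11 in Ctrl and at 95.9 and 93.2 with PhenDC3. An intergenic site 36.2 kb downstream of the start of Rmi2, a subunit of the BLM helicase complex (chr16:10871045-10871477), stood at 12.7, 4.11 and 1.08 and then at 95.8 and 83.5. In all 3 both PhenDC3 lists were far above every Ctrl list.

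The largest falls were of the same size. A site in an intron of Bcl3, a partner of NF-κB (chr7:19820763-19821167), went from 99.5, 93.9 and 97.4 in Ctrl to 4.40 and 5.17 with PhenDC3. The site 4.17 kb upstream of Ier3, an early response gene (chr17:35817076-35818005), went from 91.6, 97 and 97.7 to 8.65 and 0.153. In an intron of Rab40c, a small GTPase gene (chr17:25887270-25888026), the percentiles were 99.1, 98.5 and 96.4 in Ctrl and 0.263 and 17.0 with PhenDC3. The fold enrichment of this last site was 18, 13.8 and 10.7 in Ctrl and 2.29 and 2.36 with PhenDC3. These 6 sites were picked by the size of this change, which is therefore a description.

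The strongest G4 of these 6 sites, with 5 bases on either side, are shown on their G-rich strand with runs of at least 3 G in capitals, since a G4 was present both where the signal was higher and where it was lower with PhenDC3. They come from chr8:11803895-11803950, chr8:83923816-83923877, chr16:10871519-10871585 and chr7:19820654-19820697 on the minus strand and from chr17:35817011-35817094 and chr17:25887235-25887302 on the plus strand. In the Arhgef7 G4 the summits of the 5 lists lay 260 to 332 bp downstream of the G4 centre, and in the Rab40c G4 106 to 246 bp downstream. At Bcl3 they lay on the other side, at -349 to -319 bp.
Arhgef7, higher: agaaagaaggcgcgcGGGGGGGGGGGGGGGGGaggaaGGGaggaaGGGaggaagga
Adgrl1, higher: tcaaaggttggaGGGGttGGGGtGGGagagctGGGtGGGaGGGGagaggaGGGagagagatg
Intergenic near Rmi2, higher: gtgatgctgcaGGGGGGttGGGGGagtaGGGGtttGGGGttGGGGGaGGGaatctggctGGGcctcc
Bcl3, lower: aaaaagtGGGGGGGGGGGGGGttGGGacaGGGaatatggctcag
Upstream of Ier3, lower: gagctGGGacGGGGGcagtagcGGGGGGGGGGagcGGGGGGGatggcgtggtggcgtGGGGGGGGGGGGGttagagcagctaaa
Rab40c, lower: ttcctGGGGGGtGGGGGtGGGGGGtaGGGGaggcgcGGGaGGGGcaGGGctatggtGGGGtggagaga

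Origins at 3 genes that the study singled out, Rai1, Mafg and Hip1, included 6 constitutive sites. Rai1, which encodes a transcriptional regulator named for its induction by retinoic acid, had 3 within 2 kb of its start sites. The site 351 bp upstream of one of them (chr11:60104238-60105085) had no G4 at the score of 2 and 5 at a score of 1.5. It stood at percentiles of 85.4, 96.1 and 46.1 in Ctrl and of 29.3 and 1.82 with PhenDC3, below every Ctrl list. The site at chr11:60139039-60140003 stood at 95.6, 91.1 and 76.7 and then at 19.2 and 85.8, and the PhenDC3 lists fell on either side of Ctrl replicate 3. The site at chr11:60140556-60140935 stood at 85.4, 82.7 and 77.1 and then at 97 and 69.2, above and below the Ctrl lists. The strongest G4 of these last 2 sites, on the minus strand at chr11:60139569-60139605 and chr11:60141064-60141098, are shown in the same way.
Rai1, first intronic site: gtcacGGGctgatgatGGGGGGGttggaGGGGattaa
Rai1, second intronic site: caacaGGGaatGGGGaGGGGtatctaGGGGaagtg

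At the start of Hip1, which encodes a clathrin-binding protein, a constitutive origin with no G4 at the score of 2 (chr5:135544199-135545478) had percentiles of 95.7, 95 and 87.1 in Ctrl and 93.7 and 77.0 with PhenDC3. Mafg, which encodes a small Maf transcription factor, had 2 sites. The intronic one (chr11:120632143-120633041, no G4 at the score of 2) stood at 51.5, 99.3 and 57.3 in Ctrl and 65.0 and 95.9 with PhenDC3. The other, in an exon of the non-coding gene Gm17586 (chr11:120633510-120634328), stood at 80.1, 86.4 and 63.7 and then at 23.6 and 38.2, below every Ctrl list.

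The RNA-seq samples expressed ES cell genes. Ctrl cells had 1487 ± 114 (SD, n = 3) CPM (read counts scaled to library size) of Pou5f1, which encodes the core pluripotency factor OCT4, 625 ± 19.8 of Sox2 and 478 ± 12.48 of Nanog. Of the fibroblast genes, Col1a1, Col1a2 and Postn were at 0.864, 0.264 and 0 CPM, Thy1 at 5.04 and Vim at 165. The endoderm genes Gata4, Gata6 and Sox17 were at 11.2, 7.20 and 3.63 CPM and rose with PhenDC3 (log2 fold changes 1.01, 0.85 and 0.98), Afp was at 0.0697, and Vim and Thy1 fell (-1.40 and -1.31). The part of other cell types in the RNA results was not tested, and in bulk RNA fewer cells of a type and less RNA per cell cannot be told apart.

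Genes near constitutive origins were expressed about as highly as genes near other origins. Of 23938 genes with a curated TSS in the count table, 3609 (15.1%) had a constitutive origin within 2 kb of a TSS. The share was 7.81% among genes under 0.1 RPKM (reads scaled to exon length and library size) in Ctrl, 19.0% at 0.1 to 1, 21.1% at 1 to 10, 19.3% at 10 to 100 and 18.9% at 100 or more. Above the lowest class it therefore did not increase with the RNA level. The median level was 2.75 RPKM with a constitutive origin, 2.97 with other origins only and 0.0295 with none.

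Genes with a constitutive origin responded to PhenDC3 about as often as all genes. Of 2798 such genes tested, 552 (19.7%) rose and 540 (19.3%) fell in edgeR's quasi-likelihood test at an adjusted p of at most 0.05, where 18.0% and 18.7% of all 13972 genes tested did so. Their median log2 fold change was 0.02, against 0.01 for all genes. Neither a G4 nor the direction of the SNS-seq percentile set genes apart from this background by more than a few points: 20.1% rose and 19.3% fell with a G4-positive site, 17.8% and 19.3% with G4-negative sites only, 19.0% and 18.8% near sites higher with PhenDC3, and 18.9% and 20.8% near sites lower with PhenDC3. No test of these differences was made. Without PhenDC3 replicate 1, 367 rose and 370 fell of 2838 tested, which is 26.0% called where 23.5% of all genes were.

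Among the genes that changed most, members of the Wnt pathway stood in both directions. Lef1, which encodes a transcription factor that acts with β-catenin, had 21.1, 21.2 and 33.6 CPM in Ctrl and 0.555, 0.333 and 0.326 with PhenDC3, a log2 fold change of -5.93 ± 0.30 (SE) and an adjusted p of 2.63e-05 with edgeR. Its constitutive origin (chr3:131109419-131110060) had 4 G4 and percentiles of 95.6, 79.4 and 58 in Ctrl and 51.8 and 91.6 with PhenDC3, which overlap. Wnt3a, a Wnt ligand, rose from 0.435, 0.364 and 0.0867 to 2.67, 2.996 and 2.25 CPM (log2 fold change 3.12 ± 0.42, edgeR adjusted p 0.000772). The 2 genes were named by the size of their change, and no list of Wnt genes was tested.

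The other large falls were in Slc7a7 (-4.12), a transporter of cationic amino acids, Myrf (-3.76), a membrane-bound transcription factor, Vwa1 (-3.41), an extracellular matrix protein, and 1700097N02Rik (-3.27). The other large rises were in Pkd2l1 (4.01), an ion channel subunit, Ebf4 (3.53), a transcription factor of the EBF family, AI593442 (3.35) and Apba1 (3.19), a neuronal adaptor protein. Slc7a7 had 118.4, 111 and 96.8 CPM in Ctrl and 5.73, 4.20 and 8.74 with PhenDC3, and its G4-negative origin stood at 66.5, 2.54 and 20.4 and then at 79.0 and 59.2. Pkd2l1 had 0.362, 0.182 and 0.0867 CPM in Ctrl and 4.48, 3.75 and 2.47 with PhenDC3, and its origin, which has a G4, stood at 58.2, 55.6 and 77.5 and then at 73.5 and 44.3. The percentiles of both origins overlapped between conditions.

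Of 15 pluripotency genes 5 carried a constitutive origin at their start, and 11 carried any origin, where 15.1% and 48.5% of all genes did. Any origin was commoner among expressed genes, between 64.7% and 67.4% in the classes of 1 RPKM or more. Pou5f1 fell slightly, from 1437, 1618 and 1407 CPM to 1098, 1126 and 1044 (log2 fold change -0.45 ± 0.11, edgeR adjusted p 0.0113). The stronger of its 2 sites (chr17:35509490-35510182) stood at percentiles of 99.3, 99.3 and 98.2 in Ctrl and 75.7 and 86.9 with PhenDC3, so all Ctrl lists were higher. Utf1, a chromatin-associated factor of ES cells, fell (-2.02 ± 0.21, edgeR adjusted p 0.000234), whereas Tfcp2l1 and Klf4, transcription factors of the naive state, rose (1.62 ± 0.22 and 0.82 ± 0.11, edgeR adjusted p 0.000754 and 0.000762). Klf2 had a log2 fold change of -0.18 ± 0.16 and did not pass. Of all 15 genes, 6 rose and 3 fell, where 18.0% and 18.7% of all genes tested did, and this list was not tested as a set.

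Of 30 genes of origin licensing and firing, 3 had a constitutive origin, and 14 had any origin, where 15.1% and 48.5% of all genes did. In the classes of 1 RPKM or more, between 64.7% and 67.4% of genes had any origin. Gins2, a subunit of the replicative helicase, fell from 73.3, 70.1 and 64.8 CPM to 48.8, 48.4 and 46.1 (-0.53 ± 0.10, edgeR adjusted p 0.00413), while its origin (chr8:120588355-120589511) stood at 54.8, 30.5 and 66.9 in Ctrl and at 99.5 and 99.6 with PhenDC3, above every Ctrl list. Orc4, a subunit of the origin recognition complex, and Rif1, a regulator of replication timing, had values of 0.18 and 0.38 that did not pass. Of all 30 genes, 1 rose and 8 fell, where 18.0% and 18.7% of all genes tested did. Wrn, a RecQ helicase that unwinds G4, was the only one of 12 G4 helicase genes with a constitutive origin (-0.44 ± 0.21, not passed), and none of the 12 passed the test, where 18.0% and 18.7% of all genes did. With the replicate number as a block Wrn passed (-0.42, edgeR adjusted p 0.00951).

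Of 20 developmental regulators, 4 had a constitutive origin although they were silent or nearly so. Neurog2, a neurogenic factor, had no count in Ctrl, and its strongest site (chr3:127632900-127633591, 3 G4) stood at 92.2, 93.6 and 83.8 in Ctrl and 67.2 and 96.5 with PhenDC3. Irx3, a patterning factor with a mean of 0.176 CPM in Ctrl, had a site at 97.5, 97.8 and 95.2 in Ctrl and 66.3 and 97.5 with PhenDC3 (chr8:91801404-91802071). Olig2 and Nkx2-2, factors of the ventral neural tube, also had one, and none of the 4 had enough counts to be tested. Of these 20 regulators 16 had any origin, where 48.5% of all genes and 26.3% of those under 0.1 RPKM did. None of 14 p53 target genes and none of 20 terminal tissue genes had a constitutive origin, where 8 and 6 had any origin. Of all genes 15.1% had a constitutive origin, and 7.81% of those under 0.1 RPKM, so lists of this size would hold few.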

How the data were processed

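SNS-seq peaks had been called by the authors for single replicates, against 1 RNase-treated background library per condition (per the labels, Bowtie2 to mm10 and MACS2 2.1.0). For each peak the deposited lists hold the fold enrichment, a ratio, the −log10 p and the summit; read depth is not given in the sources used here. RNA-seq read counts per gene were deposited as whole numbers (TopHat2 2.1.1, HTSeq 0.6.1p1; 22232014 to 29486502 counts per sample). Deposited DESeq2 comparison columns and normalised pseudo-counts were not used.

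Peaks of the 5 lists were merged on nuclear chromosomes (overlap of at least 1 bp), and strength was the percentile of −log10 p within the list, of the strongest peak where a site held several. The members, lists and gene classes were chosen with earlier results of these data known. G4 were predicted on the RefSeq genome GRCm38.p6 (mm10), which is also the source of the printed sequences, with G4Hunter (window 25, score at least 2, within 500 bp of the region's centre) or Quadparser (4 or more runs of 3 or more G, with loops between 1 and 7 bases). Promoters were the 2 kb upstream of curated RefSeq transcript starts. Shares carry 95% Wilson intervals, which cover counting error only.

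Lists were compared with exact sign-flip permutation tests (5 lists) or exact permutation tests (3 against 2), two-sided. RNA-seq was tested with edgeR 4.0.16 (quasi-likelihood, relative log expression normalization, filterByExpr, Benjamini-Hochberg over all genes tested) in R 4.3.3, and DESeq2 1.42.0 was an alternative. Other steps used Python 3.11.15. The merging of peaks and the edgeR test were checked on simulated data. The RNA-seq tests and the tests of 3 against 2 lists measure the spread between replicate cultures of 1 cell line. The sign-flip tests pool the lists of both conditions at the same sites. Their spread therefore includes the difference between the conditions, and their values are not independent. Sites were named as the 6 with the highest lowest percentile, the 3 largest rises and falls without overlap of the conditions, sites at Rai1, Mafg and Hip1, and the strongest without a G4 at a score of 1.5. Genes were named as the 5 largest rises and falls near a constitutive origin (adjusted p at most 0.05, mean of at least 1 CPM, no overlap) and as list genes with one. The G4-to-summit example and the tRNA site were added for display.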

Additional observations from a re-analysis of the deposited data

Results flagged for a closer look

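The contrast in median percentile between G4-positive and G4-negative constitutive origins had the opposite sign in the conditions. It was negative in all 3 Ctrl lists (-2.13, -8.70 and -5.43) and positive in both PhenDC3 lists (2.71 and 3.30), a difference of 8.43 points. The exact permutation test gave p = 0.2, the smallest value possible with 3 against 2 lists, so the design cannot pass a threshold of 0.05. Measured by fold enrichment in place of −log10 p, the contrast was negative in all 5 lists and the difference was -3.19. The lists held 79377 to 144103 peaks, and each condition had its own RNase-treated library, which cannot be told apart from the condition. The part of the number of peaks in the sign of the contrast was not tested.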

How the results depend on the processing

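Of the constitutive origins, 7868 were left when only peaks above the median of each list were used and 14119 with the 79377 strongest peaks of each list. With 1 list left out, 24960 to 29083 regions had a peak in all others. The mean G4 share difference over the lists stayed positive in the alternatives run, between 0.838 points (G4 within 250 bp) and 14.8 (without PhenDC3 replicate 1), with p between 0.125 and 0.812 in exact permutation tests, while PhenDC3 replicate 1 turned negative in 4 of them and PhenDC3 replicate 2 was negative throughout. The promoter share difference was 0.363 points for peaks above the median and -1.39 to 0.439 with 1 list left out. The G4 strength contrast between conditions was -3.19 with percentiles of the fold enrichment and otherwise 6.79 to 12.03, and the promoter contrast was 8.03 with the fold enrichment and -5.39 to 3.91 with 1 list left out. With 1 PhenDC3 list these contrasts are values with no test. With an origin in the 2 kb upstream only, fewer genes entered (1354 tested), of which 524 were called, 244 higher and 280 lower. This was 38.7% called, where 36.8% of all genes tested were. With 1 RNA-seq sample left out, 367 to 591 genes were higher and 370 to 553 lower. The share called was then 25.97% to 40.27%, and that of all genes tested moved with it, from 23.47% to 37.97%. Deviations from the group mean correlated at 0.0945, 0.664 and 0.520 between RNA-seq samples with the same replicate number. For numbers 2 and 3 the crossed values were -0.555 and -0.582, so these samples went with the Ctrl sample of their own number. PhenDC3 replicate 1 correlated best with Ctrl replicate 3 (0.101). Whether the samples were paired was thus not settled, and the main test treats them as unpaired. With the replicate number as a block, 817 genes were higher and 754 lower (56.1% called, and 53.6% of all genes tested), the G4 contrast was 8.43 and the promoter contrast -5.39. Rif1 and Wrn passed under the block (log2 fold changes 0.41 and -0.42, edgeR adjusted p 0.00121 and 0.00951), Rif1 also without Ctrl replicate 3 (0.62), and Pou5f1 did not pass without PhenDC3 replicate 1 (edgeR adjusted p 0.0543). Another 186 values for single genes kept their direction and call. The causes were not tested. RNA depth limits only the genes with few counts.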
